A study of Mus musculus with 23 samples.

Results

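The miR-23, miR-27 and miR-24 clusters are a pair of paralogous groups of microRNA (miRNA) genes, and their mature products were followed here in mouse liver. The members were the 9 mature entries of these clusters listed by name for this description, mmu-miR-23a-3p, mmu-miR-23b-3p, mmu-miR-27a-3p, mmu-miR-27a-5p, mmu-miR-27b-3p, mmu-miR-27b-5p, mmu-miR-24-3p, mmu-miR-24-1-5p and mmu-miR-24-2-5p, and all 9 were found among the 1218 entries of the count table. Small RNA was sequenced from 23 whole livers of F3 male C57bl/6J mice, bred for 3 generations on a growing diet with an added oil. In the reference group (STD_Cont in the labels, 8 libraries) the lineage had received high-oleic sunflower oil and the mice were then fed a low-fat diet. The HFoleic group (HFD_Cont, 8 libraries) came from the same oil lineage and was fed a high-fat, high-sucrose diet. The HFepa group (HFD_O3, 7 libraries) was fed that same high-fat diet but came from a lineage given fish oil rich in eicosapentaenoic acid, an omega 3 fatty acid. HFoleic and reference therefore differed in the final diet, HFepa and HFoleic in the oil given to the lineage, and HFepa and reference in both.

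A miRNA gene is transcribed as a hairpin, whose 5′ and 3′ arms each yield a mature strand of about the same length, and the strand kept in the Argonaute protein silences mRNAs that pair with its seed. Genes of the miR-23, miR-27 and miR-24 families lie next to each other and are transcribed together, with copies 23a, 27a and 24-2 in one cluster and 23b, 27b and 24-1 in the other. In liver and fat the miR-27 family is known for silencing genes of lipid metabolism and adipocyte differentiation such as Pparg, miR-24 for silencing Insig1, a brake on sterol and fatty acid synthesis, and miR-23 for silencing glutaminase.

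The mature sequences are shown because the families are defined by their seeds and because the copies of a family are hard to tell apart in short reads. RefSeq (GRCm38.p6) held a sequence for 8 of the 9 members, and the entry without one was miR-23b-3p. They are written 5′ to 3′ with the seed, bases 2 to 8, in capitals.
mmu-miR-23a-3p: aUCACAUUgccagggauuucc
mmu-miR-27a-3p: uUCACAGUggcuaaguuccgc
mmu-miR-27b-3p: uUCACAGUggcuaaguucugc
mmu-miR-27a-5p: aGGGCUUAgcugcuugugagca
mmu-miR-27b-5p: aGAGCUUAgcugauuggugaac
mmu-miR-24-3p: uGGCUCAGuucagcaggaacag
mmu-miR-24-2-5p: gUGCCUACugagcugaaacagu
mmu-miR-24-1-5p: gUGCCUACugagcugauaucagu

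The 8 sequences carried 6 different seeds. miR-27a-3p and miR-27b-3p shared a seed and differed in 1 of 21 bases, C19U when miR-27a-3p is read first and positions are counted from the 5′ end. The miR-24 passenger strands miR-24-2-5p and miR-24-1-5p also shared a seed, and differed in 5 of the 22 bases compared, from position 17 onwards. By contrast, miR-27a-5p and miR-27b-5p differed in 8 of 22 bases, beginning inside the seed with G3A. The alignment tolerated mismatches, so the split of reads between miR-27a-3p and miR-27b-3p, and between miR-23a-3p and miR-23b-3p, is uncertain.

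On GRCm38.p6 the plus strand of chromosome 8 held Mir23a (84208518 to 84208592), Mir27a (84208672 to 84208758) and Mir24-2 (84208815 to 84208921), a cluster of 404 bases. In the GENCODE annotation Mir23a and Mir27a lay outside other genes, and the 3′ end of Mir24-2 met an exon of the long non-coding gene Gm26532. The plus strand of chromosome 13 held Mir23b (63300484 to 63300557), Mir27b (63300712 to 63300784) and Mir24-1 (63301208 to 63301275), spread over 792 bases within 2010111I01Rik. Mir23b was intronic in every annotated transcript of that gene, while Mir27b and Mir24-1 overlapped an exon of at least 1 transcript, and the Fancc gene ran over all 3 on the opposite strand. miR-24-3p is made from both Mir24-1 and Mir24-2 with the same letters, so its counts cannot be assigned to a chromosome. The hairpins show this, with the 5p and 3p mature strands in capitals.
Mir24-1: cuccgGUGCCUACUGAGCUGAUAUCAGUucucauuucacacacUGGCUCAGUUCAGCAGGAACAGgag
Mir24-2: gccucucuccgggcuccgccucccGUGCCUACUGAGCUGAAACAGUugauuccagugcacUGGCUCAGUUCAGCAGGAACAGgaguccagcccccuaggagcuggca

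Each library held between 3725432 and 8139344 counts. The reference libraries held 5242218 to 8139344 counts and the HFepa libraries 3725432 to 4947990, so these groups did not overlap in depth. The HFoleic libraries 9 to 11 held 5582691 to 7220112 counts. The HFoleic libraries 12 to 15 and 23 held 4340903 to 5774616 counts, an overlap in part. The part of depth in differences between groups or library numbers was not tested. Levels are CPM, counts scaled to the library total and to TMM, a factor per library that sets the bulk of miRNAs level. Of the 1218 entries, 386 had enough counts to be tested with edgeR's quasi-likelihood test, all 9 members among them, and a miRNA was called at a Benjamini-Hochberg adjusted p under 0.05 with an absolute log2 fold change above 0.25. The hepatocyte miRNAs of the liver (miR-122-5p, miR-122-3p, miR-192-5p and miR-194-5p) summed to 113554 to 267128 CPM. The lowest of these sums was that of library 3 of the reference group, which also had the highest TMM factor, 1.26, against 0.930 to 1.13 in the other 22. In that library the stellate cell and fibroblast list (42493 CPM), the leukocyte list (2922 CPM) and the biliary list (1094 CPM) were at their highest of the reference group. The endothelial list (13882 CPM) and the erythroid list (3461 CPM) were at their lowest. In whole liver, fewer cells of a type and less RNA per cell cannot be told apart. Library numbers were not spread evenly over the groups: the reference libraries were numbered 1 to 8, HFoleic 9 to 15 and 23, and HFepa 16 to 22.

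The counts of the clusters were dominated by 1 strand. mmu-miR-27b-3p took 2.24% of all counts in the table and ranked 10 of 1218, and it made up 91.6% ± 1.1 (SD, n = 8) of the counts of the 9 members in the reference group. Its level was 20807 ± 1399 CPM in reference, 23653 ± 1857 CPM (n = 8) in HFoleic and 23361 ± 1378 CPM (n = 7) in HFepa. Of both miR-27-3p copies, miR-27b-3p held 97.4% ± 0.54 in reference, 98.0% ± 0.17 in HFoleic and 97.7% ± 0.20 in HFepa. The miR-23 copies were far closer to each other, with miR-23b-3p taking 63.5% ± 6.0 of both in reference. Among the miR-24 passenger strands the order of the chromosomes was the other way round: miR-24-2-5p, made on chromosome 8, held 97.6% ± 0.53 of both in the reference group.

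Behind miR-27b-3p, 3 members lay close together in the reference group: miR-27a-3p at 550 ± 146 CPM, miR-23b-3p at 504 ± 111 CPM and miR-24-3p at 404 ± 47.2 CPM. Their ranges overlapped from neighbour to neighbour, and miR-27a-3p was above miR-23b-3p in 5 of 8 reference libraries, 4 of 8 HFoleic libraries and 5 of 7 HFepa libraries, so the order of these neighbours did not hold in every library. miR-23a-3p came next with 287 ± 64.9 CPM, below miR-24-3p in all 8 libraries. The passenger strands followed at 141 ± 15.7 CPM for miR-24-2-5p and 21.7 ± 4.6 CPM for miR-27b-5p, each apart from its neighbours without overlap. At the low end, miR-27a-5p (3.82 ± 1.1 CPM) and miR-24-1-5p (3.54 ± 0.91 CPM) overlapped, and each rested on only 7 to 38 reads per library. All sequenced members were 21 to 23 bases long, so their read counts were compared without a scaling for length. The libraries were made by adapter ligation and PCR, and how evenly these steps recovered different sequences was not tested. Comparisons between members, copies and arms are therefore of read counts, not of molecules in the liver.

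The gap between arms of a hairpin was wide. In the reference group the median library held 994 counts of miR-27b-3p for each count of miR-27b-5p, and 141 counts of miR-27a-3p for each of miR-27a-5p. The other strands of the miR-23 hairpins were hardly seen, with 13 counts of miR-23a-5p and 21 of miR-23b-5p over all 23 libraries, and neither was tested.

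**Figure D1:**
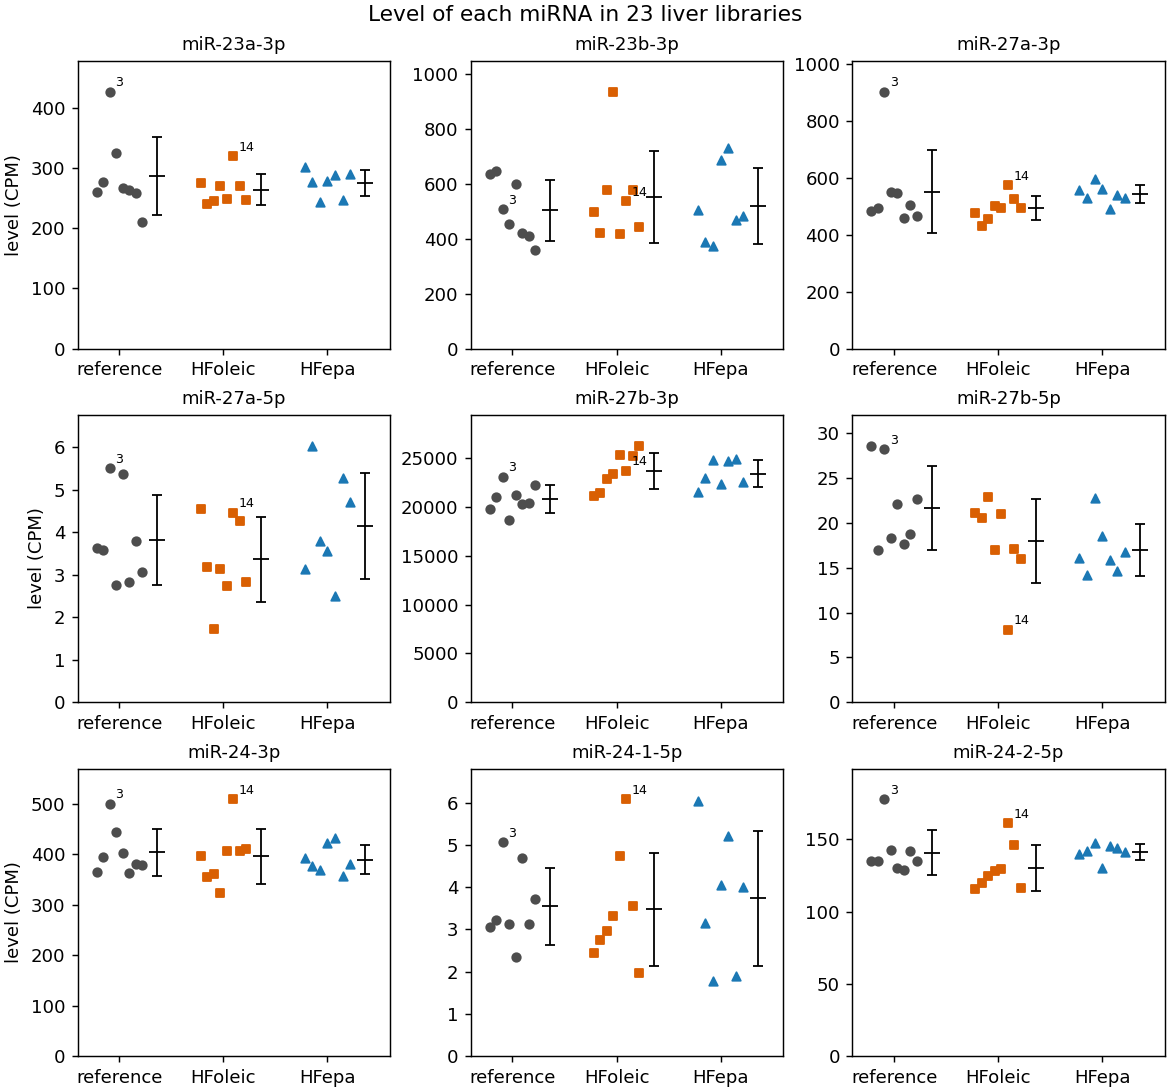
Level in CPM (vertical axes, from 0) of each of the 9 members in every library, by group; the bar beside each group is its mean and SD (n = 8, 8 and 7), and the numbers mark libraries 3 and 14. Library 3 was the highest reference library for 7 of the 9 members, and miR-27b-3p lay at 18606 to 26260 CPM where no other member passed 935 CPM.

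Is the high-fat diet in the oleic lineage accompanied by another level of these miRNAs? In HFoleic vs. reference, 0 of the 9 members were called, against 12.4% of all 386 tested miRNAs. DESeq2, limma on quantile-normalized values and limma-voom with quality weights also called 0, and 1 member had an unadjusted p under 0.05 in edgeR, where 28.5% of all miRNAs did. Of the 9 members, 7 were lower and 2 higher, with a median log2 fold change of -0.11 beside -0.002 over all miRNAs. Of all tested miRNAs, 51.0% were lower. Without reference library 3, 5 of the 9 members were lower and their median was -0.004.

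The member with the small unadjusted p was miR-27b-3p. In the reference group its 8 libraries lay at 18606 to 23060 CPM with a median of 20688, and in HFoleic at 21054 to 26260 CPM with a median of 23552. All 8 HFoleic libraries were above the reference median and 5 above the highest reference library, so the groups overlapped in part. Its log2 fold change was 0.18 (SE 0.054, 95% interval 0.073 to 0.30, edgeR adjusted p = 0.0288), which passed the test but not the fold threshold. Without a fold threshold, 12.7% of all miRNAs were called in this comparison. The adjusted p lay between 0.00994 and 0.116 when 1 library was left out, under 0.05 in 10 of 23 such fits.

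This difference moved with the library number. The HFoleic libraries 9 to 11 held 21054 to 22875 CPM of miR-27b-3p, within the reference range, whereas the HFoleic libraries 12 to 15 and 23 held 23401 to 26260 CPM, all above the highest reference library. With libraries 1 to 11 alone, the log2 fold change was 0.074 (edgeR adjusted p = 0.703), and with the split of the numbers between 11 and 12 as a covariate it was 0.067 (edgeR adjusted p = 0.767). What the library numbers stand for is not stated in the sources used here, and their part in the difference was not tested further.

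The partner arm went the other way in its means. miR-27b-5p lay at 16.97 to 28.6 CPM in reference, with a median of 20.5, and at 8.11 to 22.95 CPM in HFoleic, with a median of 18.8. Its log2 fold change was -0.27 (SE 0.17, 95% interval -0.62 to 0.080, edgeR adjusted p = 0.297), within the spread between libraries. It too went with the library number: the HFoleic libraries 9 to 11 averaged 21.6 CPM, beside 21.7 CPM in reference, and those from 12 onwards 15.8 CPM. In libraries 1 to 11 alone the log2 fold change was 0.00035, and without library 14 it was -0.17. It was counted with 40 to 195 reads per library, against 87436 to 159198 for the 3p arm.

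The members made on chromosome 8 had lower means in HFoleic, and 1 reference library weighed on them. miR-27a-3p lay at 458 to 901 CPM in the reference libraries (median 499) and at 431 to 574 CPM in the HFoleic libraries (median 494), with a log2 fold change of -0.16 (SE 0.11, adjusted p = 0.349). The 901 CPM were those of library 3, and the other 7 reference libraries stood at 500 ± 36.2 CPM. Without library 3, the log2 fold change was -0.017. miR-23a-3p showed the same picture, with 427 CPM in library 3 and 267 ± 33.7 CPM in the other 7 libraries. Its log2 fold change of -0.11 (SE 0.10, adjusted p = 0.496) became -0.004 without library 3. For miR-24-2-5p, with 178 CPM in library 3 and 136 ± 5.3 CPM in the others, the log2 fold change was -0.11 (SE 0.076, adjusted p = 0.328), and -0.06 without library 3.

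The remaining members differed by less than the spread between libraries in HFoleic vs. reference. miR-23b-3p ranged from 359 to 646 CPM in reference and from 418 to 935 CPM in HFoleic, and its log2 fold change was 0.13 (95% interval -0.23 to 0.49). For miR-24-3p, at 363 to 501 CPM in reference and 324 to 509 CPM in HFoleic, it was -0.03 (95% interval -0.20 to 0.15). The low-count strands miR-27a-5p and miR-24-1-5p had log2 fold changes of -0.19 and -0.03 with intervals from -0.63 to 0.25 and from -0.55 to 0.48, the widest of the 9 members in this comparison.

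**Figure D2:**
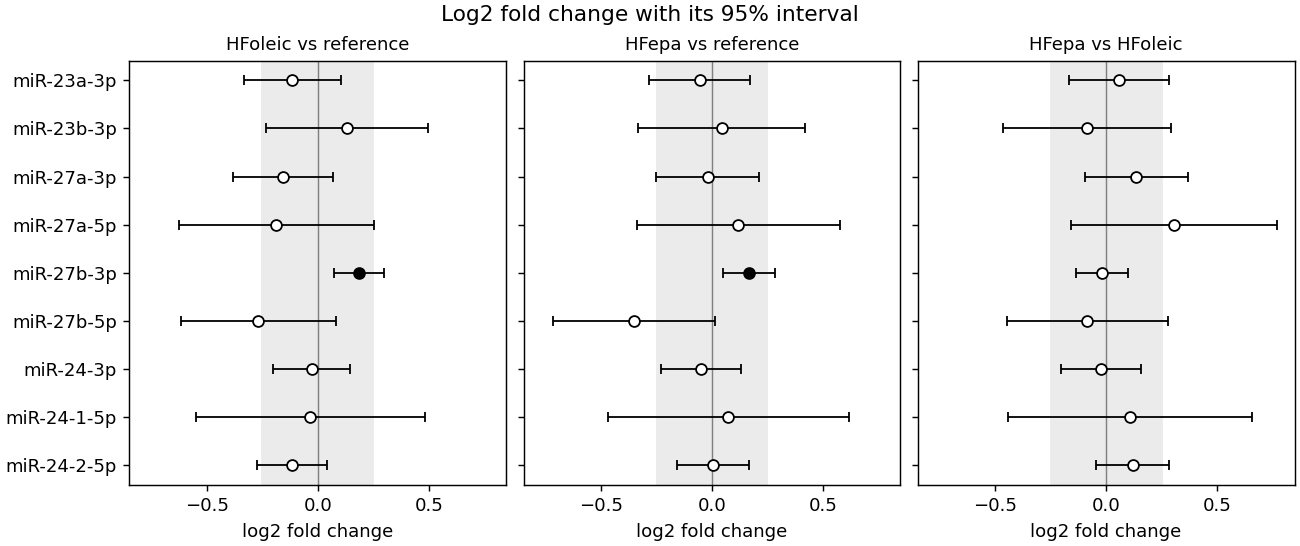
Log2 fold change of each member in the 3 comparisons (horizontal axes), with its 95% interval; filled points have an edgeR adjusted p under 0.05 and the grey band spans log2 fold changes of -0.25 to 0.25. Only miR-27b-3p is filled, in both comparisons with the reference group, and both of its points lie inside the band.

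In HFepa vs. reference, where diet and lineage both differed, again 0 of the 9 members were called, against 15.8% of the 386 miRNAs. The other tools called 0 as well, and 1 member had an unadjusted p under 0.05 in edgeR, where 28.5% of all miRNAs did. With limma-voom 3 members had one, as did 121 of the 386 miRNAs. The members were split, 4 lower and 5 higher, with a median log2 fold change of 0.005 beside -0.057 over all miRNAs. Of all tested miRNAs, 57.3% were lower. Without reference library 3, 1 of the 9 members was lower and their median was 0.061. miR-27b-3p lay at 21469 to 24852 CPM in HFepa, with a median of 22972. All 7 HFepa libraries were above the reference median and 3 above the highest reference library. The log2 fold change was 0.17 (SE 0.056, 95% interval 0.051 to 0.28, edgeR adjusted p = 0.0414), past the test and short of the fold threshold; without that threshold 17.9% of all miRNAs were called. Left out 1 at a time, libraries moved the adjusted p between 0.0195 and 0.117, under 0.05 in 12 of 23 fits. No HFepa library was numbered below 12 and no reference library above 11, so here the group and the library number cannot be told apart, and the same covariate gave a log2 fold change of -0.018 (edgeR adjusted p = 0.992). Only HFoleic had libraries on both sides of the split, 3 and 5, so the covariate rests on that group alone. Its values for HFepa vs. reference, here and below, therefore cannot decide between group and library number.

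The endothelial miRNA list, miR-126a-3p and miR-126a-5p, had a higher median sum in both high-fat groups than in reference, as miR-27b-3p did. The sum of the list was 13882 to 20325 CPM in reference (median 18826), 18212 to 26003 CPM in HFoleic (median 19750) and 19642 to 23668 CPM in HFepa (median 20872). The median sum of the hepatocyte list was also higher in HFoleic (255867 CPM) than in reference (234128 CPM), and lower in HFepa (231220 CPM). In library 3 the endothelial list was the lowest of the reference group and miR-27b-3p the highest. miR-126a-3p had log2 fold changes of 0.028 in HFoleic and 0.12 in HFepa vs. reference. Of the 2 endothelial miRNAs, miR-126a-5p was called higher in HFepa vs. reference (log2 fold change 0.25), and neither was called in the other comparisons. That call was lost on leaving out library 3, 5, 16, 18, 20, 21 or 22, and with the covariate for the library number its log2 fold change was 0.0033. The hepatocyte (4 tested), stellate cell and fibroblast (5 tested) and erythroid (3 tested) lists had 0 called in each comparison.

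Single markers of other cell types were called lower in the comparisons with reference, and the median sums of their lists went in both directions. The median sum of the biliary list was higher in both high-fat groups, with 191 CPM in reference, 233 CPM in HFoleic and 216 CPM in HFepa. Those of the leukocyte (1749, 1533 and 1575 CPM), muscle (5.97, 5.27 and 4.08 CPM) and pancreas (17.2, 15.6 and 15.6 CPM) lists were lower. In each of these lists the ranges of the groups overlapped. Of the 5 leukocyte miRNAs only miR-150-5p, a lymphocyte miRNA, was called, with log2 fold changes of -0.94 in HFoleic vs. reference (edgeR adjusted p = 0.0174) and -1.40 in HFepa vs. reference (edgeR adjusted p = 0.00122), and with the covariate these were -0.36 and -0.31 and not called. Of the 5 biliary miRNAs only miR-429-3p was called, in HFepa vs. reference (-1.22, edgeR adjusted p = 0.0340), and not without library 3 (-0.48), which held 1094 CPM of the biliary list; the call held in 16 of 23 fits that left out 1 library, and was also lost without HFepa library 16, 17, 18, 20, 21 or 22. The muscle miRNA miR-133a-3p had log2 fold changes of -2.64 in HFoleic and -2.85 in HFepa vs. reference and was called in both. The muscle list summed to 215 CPM in reference library 4 and to at most 12.2 CPM in every other library, and without library 4 the values were -0.15 and -0.36, not called. On leaving out each library in turn it stayed called in 14 of 23 fits for HFoleic and 15 of 23 for HFepa, the others being library 4, each HFepa library in HFepa vs. reference, and libraries 5, 10 to 15 and 23 in HFoleic vs. reference. The islet miRNA miR-375-3p, at -3.87 and -4.19, was called in both, and not without reference library 5 (-0.32 and -0.62), which held 2020 CPM of the pancreas list against at most 57.4 CPM in the others. For miR-27b-3p in HFoleic vs. reference, the log2 fold change stood at 0.16 without library 4 (edgeR adjusted p = 0.0643) and 0.17 without library 5 (edgeR adjusted p = 0.116), and in HFepa vs. reference 0.15 (edgeR adjusted p = 0.0807) and 0.16 (edgeR adjusted p = 0.111). The part of these cell types in the level of miR-27b-3p was not tested further.

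miR-27b-5p had the widest difference of the 9 members in HFepa vs. reference. It lay at 14.2 to 22.8 CPM with a median of 16.1, and 5 of the 7 HFepa libraries were below the lowest reference library. The log2 fold change was -0.35 (SE 0.17, 95% interval -0.72 to 0.012, edgeR adjusted p = 0.185), which did not pass the test. With the covariate for the library number it turned to 0.093 (edgeR adjusted p = 0.982), and the widest value was then -0.46, for miR-24-1-5p. That covariate rests on the HFoleic libraries alone, so these 2 values cannot decide between group and library number. Without the covariate, the 7 members other than miR-27b-5p and miR-27b-3p had log2 fold changes between -0.06 and 0.12. The intervals of miR-24-2-5p (-0.16 to 0.17) and miR-24-3p (-0.23 to 0.13) were the narrowest among them, inside the fold threshold of 0.25.

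Between HFepa and HFoleic, which shared the high-fat diet and differed in the lineage's oil, no miRNA was called (0% of 386), and 22 had an unadjusted p under 0.05. None of these 22 was a member. An unadjusted p under 0.05 was given to 1 member by DESeq2 (23 of 386 miRNAs) and to 3 by limma-voom (55 of 386), none of them called. miR-27b-3p had a log2 fold change of -0.02 (SE 0.056, 95% interval -0.13 to 0.098, edgeR adjusted p = 0.968). The largest value was that of the sparsely counted miR-27a-5p, 0.31 (95% interval -0.16 to 0.77, adjusted p = 0.916). miR-24-2-5p stood at 130 to 148 CPM in HFepa and 115 to 161 CPM in HFoleic, and all 7 HFepa libraries lay above the HFoleic median. Its log2 fold change was 0.12 (SE 0.078, adjusted p = 0.901), within the spread between libraries.

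Ratios of 2 members within a library do not depend on the library's total or its scaling, and 8 of them were compared: copies of a family, arms of a hairpin and neighbours in a cluster. Each was tested by an exact permutation test (two-sided, smallest possible p 0.0001554), with adjustment over the 8 ratios of a comparison. One of 8 was called in HFoleic vs. reference, another in HFepa vs. reference and 0 of 8 in HFepa vs. HFoleic, where 1 had an unadjusted p under 0.05.

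The miR-27 copies gave the call in HFoleic vs. reference. The log2 ratio of miR-27b-3p to miR-27a-3p ran from 4.68 to 5.58 in reference, with a median of 5.34, and from 5.37 to 5.73 in HFoleic, with a median of 5.61. In counts, the median library held 40.6 reads of miR-27b-3p per read of miR-27a-3p in reference, 48.8 in HFoleic and 42.5 in HFepa. All 8 HFoleic libraries were above the reference median and 5 above its highest library. The mean log2 ratio was higher by 0.31 (SE 0.11, exact permutation p = 0.00373, adjusted p = 0.0298). The lowest reference ratio was that of library 3, and without it the difference was 0.23. The call was lost on leaving out library 3, 10, 12, 13, 15 or 23 (exact permutation, adjusted p of at most 0.0771). In libraries 1 to 11 alone, the difference was 0.31 with 3 HFoleic libraries (exact permutation, adjusted p = 0.679), and the HFoleic libraries 9 to 11 and those from 12 onwards had means of 5.59 and 5.58. In HFepa the mean, 5.43, was between the other groups, 0.16 above reference (exact permutation p = 0.214; 0.071 without library 3) and 0.16 below HFoleic (exact permutation p = 0.0350, adjusted p = 0.280).

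The miR-27b arms gave the call in HFepa vs. reference. The log2 ratio of miR-27b-5p to miR-27b-3p ran from -10.27 to -9.42 in reference, with a median of -9.96. In HFepa it ran from -10.72 to -10.08, with a median of -10.38, and none of the 7 libraries was above the reference median. The difference in means was -0.50 (SE 0.13, exact permutation p = 0.00202, adjusted p = 0.0162), with -0.56 to -0.43 and an adjusted p of at most 0.0400 on leaving out 1 library at a time. HFoleic lay at -11.50 to -9.95, with a difference from reference of nearly the same size, -0.48 (SE 0.21, exact permutation p = 0.0208), which did not pass after adjustment (adjusted p = 0.0833). Without library 9 or without library 11 it did, with adjusted p values of 0.0423 and 0.0429 by the same exact permutation test, and without library 14 the difference was -0.33. HFepa and HFoleic differed by -0.02 (SE 0.20, exact permutation p = 0.933).

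The arm ratio too went with the library number. The HFoleic libraries 9 to 11 had log2 ratios of -10.02 to -9.95 and a mean of -9.98, beside the reference mean of -9.93. The HFoleic libraries 12 to 15 and 23 had -11.50 to -10.23 and a mean of -10.67, beside the HFepa mean of -10.43. The -11.50 was that of library 14, and the others of these lay at -10.68 to -10.23. In libraries 1 to 11 alone, HFoleic vs. reference differed by -0.05 (exact permutation p = 0.782), and in libraries 12 to 23 alone HFepa was 0.24 above HFoleic (exact permutation p = 0.319). For HFepa vs. reference no set of library numbers held both groups, so the library number and the group cannot be told apart.

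**Figure D3:**
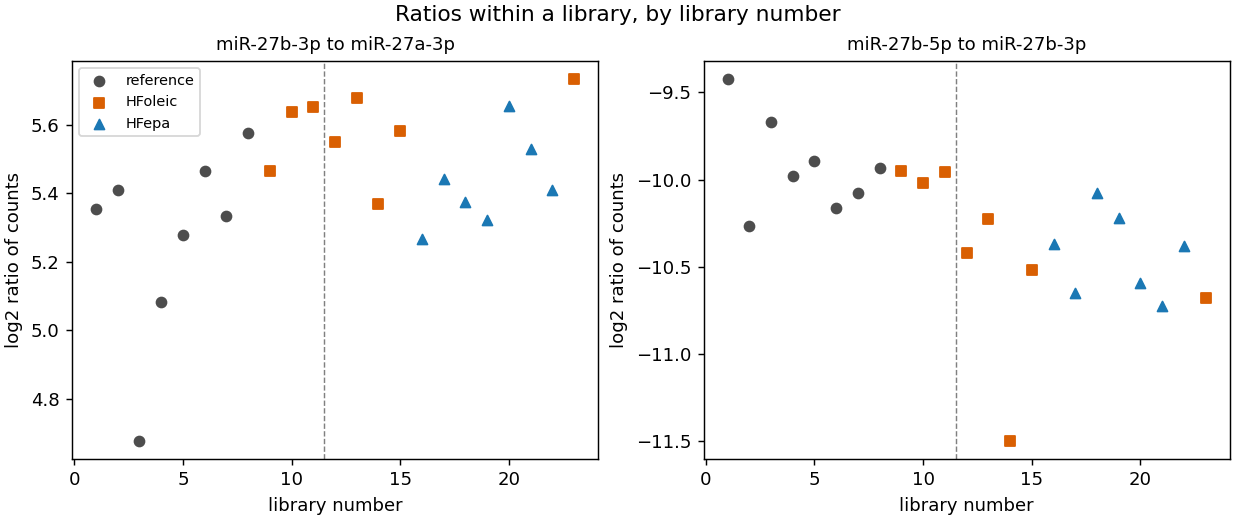
Log2 ratio of counts within each library (vertical axes) against the library number (horizontal axes), for miR-27b-3p to miR-27a-3p on the left and miR-27b-5p to miR-27b-3p on the right; the dashed line separates libraries 1 to 11 from 12 to 23. In the right panel the 3 HFoleic libraries left of the line lie among the reference libraries and the 5 to its right lie below -10.2, while in the left panel library 3 lies lowest, at 4.68.

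The other ratios stayed within the spread between libraries in the 3 comparisons, each with an exact permutation p of 0.0726 or more. The smallest of these belonged to miR-27b-5p to miR-27a-5p in HFepa vs. reference, a difference of -0.46 (SE 0.24, exact permutation p = 0.0726, adjusted p = 0.290). Neighbours in a cluster kept a closer ratio on chromosome 8 than on chromosome 13: the SD of the log2 ratio of miR-27a-3p to miR-23a-3p was 0.14, 0.076 and 0.18 in reference, HFoleic and HFepa, against 0.34, 0.40 and 0.39 for miR-27b-3p to miR-23b-3p. The same contrast appeared over all 23 libraries, as a description, in the Pearson correlation of log2 CPM, which was 0.79 between miR-23a-3p and miR-27a-3p and 0.02 between miR-23b-3p and miR-27b-3p. These correlations share the library scaling, and library 3 is a high point of the former.

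The table also held entries annotated on the opposite strand of the miR-24 genes, and their counts ran close to or below those of miR-24. miR-3074 is annotated on the minus strand, Mir3074-2 over Mir24-2 and Mir3074-1 over Mir24-1, so that its mature strands face those of miR-24. RefSeq gives the facing sequences, again with the seed in capitals and shown here to be read against the miR-24 strands above.
mmu-miR-3074-2-3p: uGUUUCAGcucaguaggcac
mmu-miR-3074-5p: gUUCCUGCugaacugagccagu

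Of the bases that face each other, 20 of 20 were complementary for miR-24-2-5p with miR-3074-2-3p, and 20 of 20 for miR-24-3p with miR-3074-5p. The counts of miR-3074-2-3p were 98.9% to 100% of those of miR-24-2-5p, with a median of 99.6%. They were equal in 5 of the 23 libraries and at most 7 counts apart in the others, with totals of 17043 and 17109. The counts of miR-3074-1-3p were 43.5% to 88.9% of those of miR-24-1-5p, and those of miR-3074-5p 38.2% to 52.1% of those of miR-24-3p, and in each of the 23 libraries the minus-strand entry was never above its plus-strand partner. How the counting treated strand is not stated in the sources used here, so in this table reads of miR-24 and of miR-3074 cannot be told apart, and the values of the miR-24 members include that uncertainty. Of the 5 further mature products of these loci, the 3 miR-3074 entries were tested and 0 were called in each comparison.

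**Figure D4:**
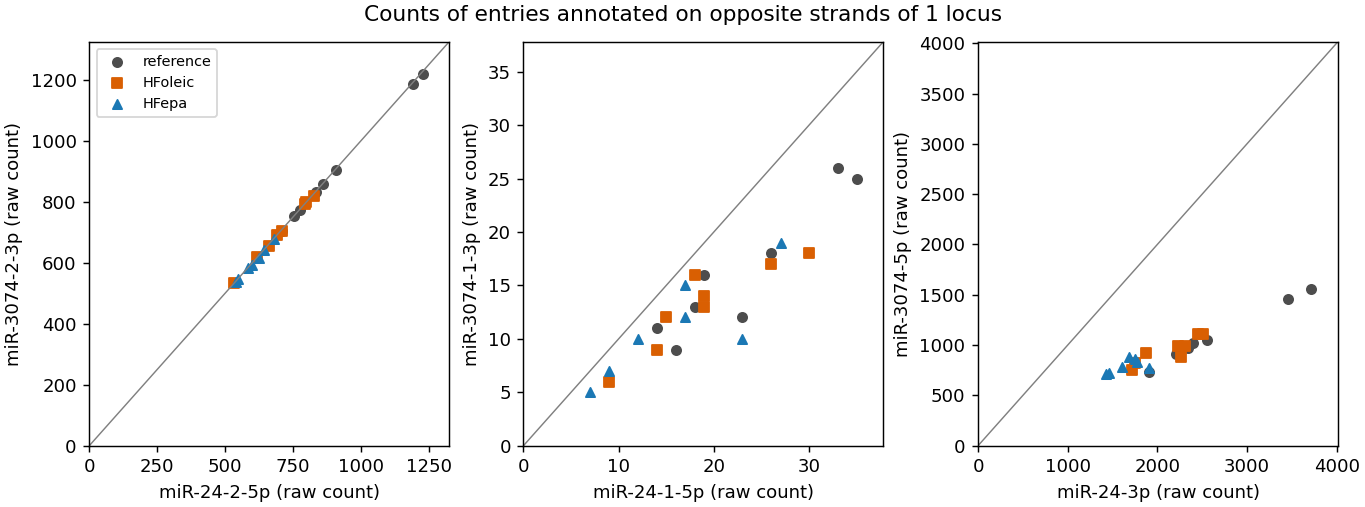
Raw counts per library of the minus-strand miR-3074 entries (vertical axes) against the miR-24 entries of the same locus (horizontal axes), 23 libraries per panel; the line marks equal counts. miR-3074-2-3p lies on the line in 5 libraries and at most 7 counts below it in the others, and the other minus-strand entries lie below it in every library.

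Library 3 was the highest of the reference group for 7 of the 9 members, all but miR-23b-3p and miR-27b-5p, and library 14 was the highest of the HFoleic group for 5, namely miR-23a-3p, miR-27a-3p, miR-24-3p, miR-24-1-5p and miR-24-2-5p. The excess in library 3 over the mean of the other 7 was 1.80-fold for miR-27a-3p, 1.60-fold for miR-23a-3p and 1.31-fold for miR-24-2-5p, and 1.13-fold for miR-27b-3p. The summed level of the members made on chromosome 8 was 815 to 1512 CPM in reference, 794 to 1060 CPM in HFoleic and 927 to 1004 CPM in HFepa, so the groups overlapped. Library 14 differed from library 3 in part of its cell markers. Its hepatocyte (267128 CPM), endothelial (26003 CPM), erythroid (6221 CPM) and muscle (12.2 CPM) lists were the highest of the HFoleic group. Its biliary list (294 CPM) ranked 2 of 8 in that group. The stellate cell and fibroblast list (27849 CPM) ranked 3 of 8 and the leukocyte list (1503 CPM) 6 of 8. What part these cell markers had in the level of the cluster was not tested.

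Other miRNAs known for a role in hepatic lipid metabolism were read as a list of 12, of which 11 were tested. One rose and 1 fell in HFoleic vs. reference, 0 rose and 1 fell in HFepa vs. reference, and 0 were called in HFepa vs. HFoleic, beside 12.4%, 15.8% and 0% of all tested miRNAs. These counts are near that background and are no result about the list. Its median log2 fold changes were 0.017, -0.005 and -0.078. The one that rose, miR-33-5p, is made from an intron of Srebf2 and silences the cholesterol exporter Abca1. Its level was 7.42 ± 2.0 CPM in reference and 11.1 ± 1.6 CPM in HFoleic (log2 fold change 0.58, SE 0.17, edgeR adjusted p = 0.0278). In HFepa it was 10.1 ± 2.2 CPM, a log2 fold change of 0.45 against reference that did not pass the test (edgeR adjusted p = 0.0758), and HFepa and HFoleic differed by -0.13 (edgeR adjusted p = 0.968). The call was lost on leaving out library 5, 14 or 23 and with limma on quantile-normalized values, and with the library number as covariate it stood at 0.54 (edgeR adjusted p = 0.415). The one that fell in both, miR-128-3p, had 45.1 ± 3.9 CPM in reference, 32.2 ± 8.4 CPM in HFoleic and 29.1 ± 6.6 CPM in HFepa, with log2 fold changes of -0.49 (adjusted p = 0.0311) and -0.63 (adjusted p = 0.00872). With that covariate they were -0.12 (edgeR adjusted p = 0.818) and 0.0081 (edgeR adjusted p = 1), so both calls were lost, as they were with limma on quantile-normalized values (-0.39 and -0.47). The HFoleic call was also lost on leaving out library 1, 4, 5, 12, 13, 14, 15 or 23. The list's most abundant miRNAs, miR-148a-3p and the hepatocyte miRNA miR-122-5p, were not called in any comparison. miR-122-5p, at 18689 ± 3694 CPM in reference, was close to the level of miR-27b-3p.

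For the most counted member of each family, the tested miRNAs other than members with the most similar profile over the 23 libraries were named. Pearson's r of log2 CPM among 377 candidates was used as a description, since the libraries share their scaling and their groups. miR-27b-3p was most like miR-425-5p (r = 0.82, and 0.88, 0.78 and 0.64 within reference, HFoleic and HFepa) and miR-148b-5p (r = 0.76). miR-23b-3p was most like miR-378a-5p (r = 0.63) and miR-98-5p (r = 0.57). miR-24-3p was most like its facing entry miR-3074-5p (r = 0.72, and 0.97, 0.88 and -0.03 within the groups) and miR-31-3p (r = 0.72). Reads of miR-3074-5p and miR-24-3p cannot be told apart here, so the former value may rest on shared reads.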

How the data were processed

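Small RNA libraries of 23 mouse livers were used, grouped by the diet and lineage labels. Per the study's methods, the authors trimmed adapters (FASTX-Toolkit), aligned reads with Bowtie in ncPRO-seq, tolerating mismatches, and annotated them against miRBase. The deposited table holds raw counts per mature miRNA, and a signal column per library that the authors made by dividing the counts by 1 factor, which was checked in 23 of 23 libraries. Only the counts were tested. The build is named as mm10 in the labels; the table has no coordinates, and the loci and sequences came from RefSeq and GENCODE on GRCm38.p6. R 4.3.3 with edgeR 4.0.16 (filterByExpr, TMM, quasi-likelihood test, 1 fit of 3 groups, Benjamini-Hochberg over 386 miRNAs) gave the fold changes; the 95% intervals used 20 degrees of freedom. The study's DEGseq test takes no spread between mice and was replaced by this test; its fold threshold, 0.25, was read as log2. Ratios had 0.5 added to each count. Nothing in the labels says whether libraries of a group shared a cage or litter, so p-values measure the spread between these libraries. PCR reads without molecular identifiers are counted, so depth covers counting error only. Alternatives were DESeq2 1.42.0, limma 3.58.1, other scalings and filters, library numbers and leaving out each library; the fits and tests were tested on simulated data. Named were the 9 members, the other products of their loci, called and most counted miRNAs of the lipid list and the closest profiles. The members and lists were chosen with earlier results of these data known.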

Additional observations from a re-analysis of the deposited data

Results flagged for a closer look

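In 8 of 51 sets of libraries examined (a member or ratio in a group), 1 library lay far from the others by Dixon's ratio of its gap to the range. Chance alone gives this in about 1 in 20 independent sets. These sets share libraries and counts, so the 8 cannot be set against that rate. In the reference group, library 3 held 901 CPM of miR-27a-3p, against 458 to 549 CPM in the other 7, and 178 CPM of miR-24-2-5p, against 129 to 143 CPM. In HFoleic, library 14 held 321 CPM of miR-23a-3p (others 241 to 275 CPM), 509 CPM of miR-24-3p (324 to 410 CPM) and 8.11 CPM of miR-27b-5p (15.9 to 22.95 CPM), and its log2 ratio of miR-27b-5p to miR-27b-3p was -11.50 (-10.68 to -9.95). Library 12 of HFoleic held 935 CPM of miR-23b-3p, against 418 to 579 CPM in the other 7, and its log2 ratio of miR-23b-3p to miR-23a-3p was 1.79, against 0.74 to 1.24.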

How the results depend on the processing

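In every alternative fit that kept the fold threshold, 0 members were called in each comparison. With no fold threshold 1 was called in HFoleic vs. reference and 1 in HFepa vs. reference, miR-27b-3p in both. Over the 9 members, 249 of 285 log2 fold changes kept their direction and their side of the threshold, as did 579 of 621 on leaving out 1 library; the others changed sign, and none of these was called. Of the ratios, 79 of 88 did so, and 331 of 368 on leaving out 1 library. In libraries 1 to 11 alone 0 ratios were called in HFoleic vs. reference, where the design holds only 3 HFoleic libraries, and on leaving out 1 library the number called there ran from 0 to 2. The causes of these changes were not tested. No paired analysis was possible because the labels give no replicate number that groups share. miR-27a-5p and miR-24-1-5p had 7 to 38 counts per library, and the part of this depth in the width of their intervals was not tested. Over all miRNAs, where edgeR called 48 and 61 in HFoleic vs. reference and HFepa vs. reference, the alternatives called 25 and 46 with DESeq2, 10 and 25 with limma on quantile-normalized values, 31 and 49 with limma-voom, 29 and 43 with no filter, 7 and 40 with only the compared groups, and 1 and 0 with the library number split as a covariate. The covariate rests on the HFoleic libraries alone, so its 0 calls in HFepa vs. reference cannot decide between group and library number. In libraries 1 to 11 alone 0 were called in HFoleic vs. reference, where 28 had an unadjusted p below 0.05 in edgeR. In HFoleic vs. reference the count fell to 12 without library 5, 24 without library 13, 21 without library 14 and 20 without library 15, and in HFepa vs. reference to 36 without library 5, 38 without library 16, 38 without library 18 and 32 without library 22. In HFepa vs. HFoleic, where edgeR called 0 and 22 had an unadjusted p below 0.05, DESeq2 called 0, limma-voom 1 and edgeR without library 19 called 1.

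The values that changed sign or side were these. With DESeq2 the value was 0.0021 for miR-27b-3p in HFepa vs. HFoleic. With limma on quantile-normalized values the value was 0.032 for miR-24-1-5p in HFoleic vs. reference, and 0.0089 for miR-24-3p in HFepa vs. reference, and 0.012 for miR-24-3p in HFepa vs. HFoleic. With library totals in place of TMM the value was -0.0047 for miR-23b-3p and -0.070 for miR-24-2-5p in HFepa vs. reference. With upper-quartile factors the value was 0.040 for miR-24-3p and 0.024 for miR-24-1-5p in HFoleic vs. reference, and 0.041 for miR-27a-3p in HFepa vs. reference. With no filter on low counts the value was -0.0073 for miR-24-2-5p in HFepa vs. reference. With at least 10 counts required in every library the value was -0.016 for miR-24-2-5p in HFepa vs. reference. With only the compared groups in the fit the value was 0.0053 for miR-27a-3p in HFepa vs. reference, and 0.0074 for miR-27b-3p and 0.0028 for miR-24-3p in HFepa vs. HFoleic. With limma-voom the value was 0.034 for miR-23a-3p, -0.016 for miR-23b-3p, 0.13 for miR-27a-3p and -0.15 for miR-24-1-5p in HFepa vs. reference, and 0.0016 for miR-27b-3p and -0.035 for miR-24-1-5p in HFepa vs. HFoleic. With the library number split as a covariate the value was -0.014 for miR-23b-3p in HFoleic vs. reference, and -0.18 for miR-23b-3p, -0.029 for miR-27a-5p, -0.018 for miR-27b-3p, 0.093 for miR-27b-5p, -0.46 for miR-24-1-5p and -0.18 for miR-24-2-5p in HFepa vs. reference, and 0.10 for miR-27b-5p and -0.076 for miR-24-1-5p in HFepa vs. HFoleic. In libraries 1 to 11 alone the value was -0.0076 for miR-23b-3p, 0.00035 for miR-27b-5p, 0.31 for miR-27b-3p to miR-27a-3p, -0.11 for miR-24-1-5p to miR-24-2-5p and 0.35 for miR-27b-5p to miR-27a-5p in HFoleic vs. reference. In libraries 12 to 23 alone the value was 0.11 for miR-27b-5p, -0.068 for miR-24-1-5p and 0.24 for miR-27b-5p to miR-27b-3p in HFepa vs. HFoleic. Without the miR-3074 entries (chosen after seeing the data) the value was 0.012 for miR-27a-3p in HFepa vs. reference, and 0.0041 for miR-27b-3p and 0.0028 for miR-24-3p in HFepa vs. HFoleic. With 1 added to each count the value was 0.013 for miR-24-1-5p to miR-24-2-5p in HFepa vs. reference. As differences of medians the value was 0.29 for miR-24-1-5p to miR-24-2-5p and -0.10 for miR-27a-5p to miR-27a-3p in HFepa vs. reference, and 0.24 for miR-24-1-5p to miR-24-2-5p and -0.083 for miR-27a-5p to miR-27a-3p in HFepa vs. HFoleic. In HFoleic vs. reference, log2 fold changes on leaving out 1 library ran from -0.093 to 0.029 for miR-24-3p, -0.20 to 0.059 for miR-24-1-5p and -0.019 to 0.22 for miR-23b-3p. In HFepa vs. reference, log2 fold changes on leaving out 1 library ran from -0.081 to 0.052 for miR-23a-3p, -0.035 to 0.12 for miR-27a-3p, -0.078 to 0.00024 for miR-24-3p, -0.014 to 0.061 for miR-24-2-5p, -0.081 to 0.21 for miR-24-1-5p, -0.00089 to 0.21 for miR-27a-5p and -0.053 to 0.13 for miR-23b-3p. In HFepa vs. HFoleic, log2 fold changes on leaving out 1 library ran from -0.045 to 0.015 for miR-27b-3p, -0.062 to 0.049 for miR-24-3p, -0.18 to 0.062 for miR-23b-3p and -0.039 to 0.28 for miR-24-1-5p. In HFoleic vs. reference, differences in log2 ratio on leaving out 1 library ran from 0.23 to 0.35 for miR-27b-3p to miR-27a-3p, -0.026 to 0.13 for miR-24-1-5p to miR-24-2-5p, -0.14 to 0.049 for miR-27a-5p to miR-27a-3p, -0.55 to -0.33 for miR-27b-5p to miR-27b-3p and -0.29 to 0.11 for miR-27b-5p to miR-27a-5p. In HFepa vs. reference, differences in log2 ratio on leaving out 1 library ran from -0.017 to 0.13 for miR-23b-3p to miR-23a-3p, -0.14 to 0.16 for miR-24-1-5p to miR-24-2-5p and -0.0082 to 0.080 for miR-27a-3p to miR-23a-3p. In HFepa vs. HFoleic, differences in log2 ratio on leaving out 1 library ran from -0.18 to 0.043 for miR-27b-5p to miR-27b-3p, -0.053 to 0.15 for miR-27b-3p to miR-23b-3p and -0.19 to 0.10 for miR-24-1-5p to miR-24-2-5p.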
